A study of Mus musculus with 12 samples.

Results

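The 8 genes described here encode the enzymes that make proline, break it down, release it from peptides and link it to glutamate: Aldh18a1, Pycr1, Pycr3, Oat, Prodh, Aldh4a1, Glud1 and Pepd. They were chosen by symbol from the 53819 gene symbols of the deposited count table, which lists Pycr3 under its older symbol Pycrl. All 8 passed the filter on low counts, among 13852 genes tested. The samples were E14 cells, a mouse embryonic stem cell line, grown in 2 dimensions, in 4 groups of 3 libraries: proline and budesonide together for 72 h, budesonide for 72 h, L-proline for 72 h, and untreated control. Budesonide, a synthetic glucocorticoid, and proline have no dose in the labels. Separate cultures are not stated either, so the p-values reflect spread among libraries that may be technical replicates only.

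Proline is made from glutamate. The synthase Aldh18a1 makes pyrroline-5-carboxylate, which reductases such as Pycr1 (mitochondrial) and Pycr3 (cytosolic) turn into proline, and the aminotransferase Oat makes the same intermediate from ornithine. Breakdown runs the other way: the dehydrogenase Prodh oxidises proline, Aldh4a1 oxidises the intermediate to glutamate, and Glud1 converts glutamate to 2-oxoglutarate. Pepd, or prolidase, frees proline from dipeptides. In mouse embryonic stem cells added proline is known to move the cells from a naive towards a primed state and to relieve an amino acid stress response run by the transcription factor Atf4.

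Counts came from a 3′ end kit that makes about 1 fragment per transcript, and libraries held 5.30 to 15.9 M counts (M for mega). Levels are CPM, a gene's counts per 1 M counts of its library, with library totals scaled by the trimmed mean of M values (TMM), and are compared here for 1 gene between libraries, not between genes. Control 3 and budesonide 3 had the highest shares of tested genes at 0 counts, 6.57% and 8.43%, against 1.39% to 5.77% in the other libraries, and were also left out together. Mean counts per library ran from 68.3 for Aldh18a1 to 3052 for Glud1, and the low members carried wider intervals. The embryonic stem cell markers had a summed level of 2697 to 3817 CPM over the libraries, with 10 of 10 detected in each group. A sum can be carried by a few abundant genes, so it does not give the level of each marker. Of 8 fibroblast markers 3 passed the filter, and the summed level of all 8 stayed between 0.769 and 11.7 CPM, with Lum and Postn at 0 in all groups. The 8 extraembryonic endoderm markers were low and summed to 19.7 to 26.8 CPM with both compounds, 5.40 to 20.5 with budesonide, 23.6 to 31.5 with proline and 6.01 to 14.2 in control.

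Calls are those of edgeR's quasi-likelihood test with a Benjamini-Hochberg adjusted p under 0.05 among all 13852 genes. The comparisons share groups, so their values are set side by side and not counted as separate support. Of the 8 enzymes 1 rose with proline against control, where 3.17% of all tested genes were called higher and 7.88% in either direction. With budesonide against control 0 were called, against 6.51% of all genes. With both compounds 1 fell against proline (4.27% of all genes called lower, 10.1% in either direction) and 1 fell against control (3.83% and 7.17%). Between both compounds and budesonide alone 0 were called (1.47% of all genes), and 0 showed an interaction (0.469%). At an unadjusted p below 0.05 there was 1 member with budesonide, 1 between both and budesonide, and 0 for the interaction, and DESeq2 and limma-voom called 0 in these 3 comparisons as well. Libraries of the groups compared did not overlap for 2 of 8 enzymes with proline against control (26.7% of all genes), 1 with budesonide against control (23.7%), 2 with both against proline (31.9%), 3 with both against control (28.4%) and 3 with both against budesonide (19.4%). With 8 genes these counts are near the background. Their median log2 changes lay between −0.30 and −0.08, beside −0.01 to 0.03 for all genes.

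**Figure D1:**
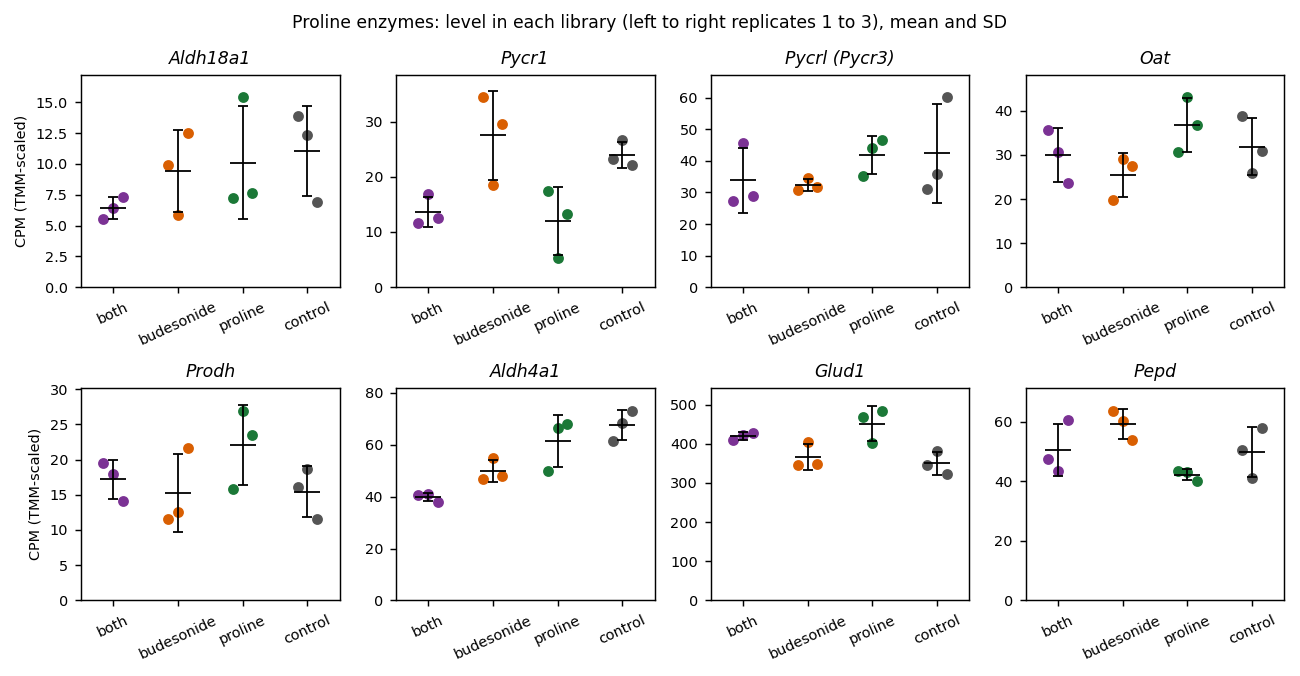
Level of each enzyme gene in every library, in TMM-scaled CPM on linear axes that start at 0. Points are libraries, replicates 1 to 3 from left to right, and the bar is the mean with its SD (n = 3). Pycr1 lay between 5.33 and 17.5 CPM in the 6 libraries with proline and between 18.6 and 34.4 CPM in the 6 without, and Aldh4a1 was lowest with both compounds.

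The reductase Pycr1, which completes proline synthesis, was lower wherever proline had been added. It stood at 11.7, 16.8 and 12.5 CPM with both compounds, at 34.4, 18.6 and 29.5 CPM with budesonide, at 17.5, 5.33 and 13.3 CPM with proline, and at 23.2, 26.6 and 22.1 CPM in control. All 6 libraries with proline lay below all 6 without it, while the groups with and without budesonide overlapped. The group means were 13.7 ± 2.75, 27.5 ± 8.09, 12.04 ± 6.17 and 24.0 ± 2.36 CPM in the same order (SD, n = 3 each).

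In the single comparisons of 3 against 3 libraries Pycr1 was not called. Its log2 change was −0.97 ± 0.35 (standard error, SE) with proline against control (edgeR adjusted p = 0.0937), −1.01 ± 0.34 with both against budesonide (adjusted p = 0.168) and −0.81 ± 0.35 with both against control (adjusted p = 0.181). Without proline 1 the proline comparison was called, at −1.35 (adjusted p = 0.0441), with a range over the alternatives of 0.0441 to 0.345. Proline 2 was the lowest library and held 36 counts. With budesonide against control the log2 change was 0.20 (95% interval −0.50 to 0.90).

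Since the layout crosses proline with budesonide, the average proline effect over cells without and with budesonide can be taken from the same fit, a comparison added after these values had been seen. Pycr1 fell by 0.99 ± 0.24 on the log2 scale in that comparison (95% interval −1.50 to −0.49, edgeR adjusted p = 0.00913), a level 1.99-fold lower with proline, and it was called in all 19 alternatives. Without control 3 and budesonide 3 the change was −0.9987 ± 0.26 (adjusted p = 0.0117). The 6 libraries with and the 6 without proline did not overlap for 3.1% of all tested genes, or 1.66% in that direction. Of the 8 enzymes 1 rose and 1 fell there, while 4.78% of all genes were called higher, 5.89% lower and 10.7% in either direction.

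The promoter of Pycr1 is shown because it holds the C/EBP-ATF composite element TGATGNAA, the kind of site to which Atf4 is known to bind, and that of Aldh18a1 because it holds the E-box CACGTG, to which Myc is known to bind. The stretches lie upstream of the start site at chr11:120643749-120643998 and chr19:40588464-40588713, minus strand of GRCm38.p6, and come from RefSeq. Both are written 5′ to 3′ on the gene's strand, with the motif in capitals.

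Pycr1: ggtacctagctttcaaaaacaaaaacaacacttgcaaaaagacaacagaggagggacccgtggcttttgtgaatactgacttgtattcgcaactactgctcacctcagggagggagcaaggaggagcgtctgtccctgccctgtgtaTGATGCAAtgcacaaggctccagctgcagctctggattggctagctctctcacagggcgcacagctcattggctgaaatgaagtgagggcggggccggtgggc

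Aldh18a1: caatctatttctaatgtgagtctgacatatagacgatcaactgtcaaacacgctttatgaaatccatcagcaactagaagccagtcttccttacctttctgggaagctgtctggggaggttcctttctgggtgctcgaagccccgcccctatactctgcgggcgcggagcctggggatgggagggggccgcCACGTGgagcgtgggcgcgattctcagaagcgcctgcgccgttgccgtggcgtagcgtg

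Each motif was searched on both strands in windows of 300 bases, from 250 before the start site to 50 after it, and 7 of the 8 enzymes had a window. Of all 32851 windows 3.97% hold TGATGNAA and 7.15% hold CACGTG. Among the enzymes Pycr1 alone has TGATGNAA in its window, at bases −103 to −96, and CACGTG lies at −59 to −54 in Aldh18a1 and at 7 to 12 in Pepd. The full glucocorticoid response element, AGAACA and TGTTCT with 3 bases of any kind between them, is in 0.00913% of windows and its half-site AGAACA in 19% (which includes the full element), and neither is in the 7 enzyme windows. A match or its absence describes these letters only.

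The cytosolic reductase Pycr3 (Pycrl) was not called in any comparison. It had 27.2, 45.8 and 28.8 CPM with both compounds, 30.7, 34.6 and 31.9 CPM with budesonide, 35.1, 44.0 and 46.7 CPM with proline, and 31.1, 35.9 and 60.1 CPM in control. Each treated group overlapped control, the budesonide libraries lay just below the proline libraries, and control 3 was the highest library. Its log2 change with budesonide against control was −0.39 (95% interval −0.92 to 0.13).

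Aldh18a1, which starts synthesis from glutamate, was the scarcest member by counts and was not called either. It stood at 5.54, 6.43 and 7.34 CPM with both compounds, at 9.92, 5.89 and 12.5 CPM with budesonide, at 7.26, 15.4 and 7.64 CPM with proline, and at 13.9, 12.3 and 6.94 CPM in control. The libraries with both compounds were the most alike, and each other group reached 7.26 CPM or less in 1 library and 12.5 CPM or more in another. The log2 change was −0.78 ± 0.44 with both against control (95% interval −1.68 to 0.13) and −0.64 ± 0.43 with both against proline (95% interval −1.54 to 0.26), so these intervals reach past a fall of 1 on the log2 scale.

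Oat, which feeds ornithine into the pathway, had 35.7, 30.7 and 23.6 CPM with both compounds, 19.7, 29.0 and 27.5 CPM with budesonide, 30.7, 43.1 and 36.7 CPM with proline, and 38.8, 25.8 and 31.0 CPM in control. Each treated group overlapped control, the budesonide libraries lay below the proline libraries, and Oat was not called in any comparison. With budesonide against control its log2 change was −0.33 (95% interval −0.84 to 0.18). In the GENCODE M21 annotation Oat overlaps a same-strand transcript of Fgfr2, which had 966 counts over the 12 libraries. Fgfr2 differed by group, at 15.2 ± 2.94, 7.68 ± 2.48, 11.9 ± 4.61 and 4.64 ± 1.05 CPM with both, budesonide, proline and in control (SD, n = 3 each). The part of Fgfr2 in the Oat values was not tested.

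On the breakdown side, Prodh takes the first step from proline. It had 19.5, 18.0 and 14.1 CPM with both compounds, 11.5, 12.6 and 21.6 CPM with budesonide, 15.8, 26.9 and 23.5 CPM with proline, and 16.0, 18.7 and 11.6 CPM in control. The mean was highest with proline, but proline 1 lay within the control range and Prodh was not called. Its log2 change with proline was 0.51 ± 0.32 (95% interval −0.15 to 1.17, edgeR adjusted p = 0.423), and the average proline effect was 0.34 (95% interval −0.12 to 0.81). Prodh overlaps Dgcr6 on the opposite strand, with 2009 counts, and the strand setting of the counting is not given, so reads of the pair may not be told apart. The related Prodh2, which oxidises hydroxyproline, was near the detection limit at 6, 43, 3 and 5 counts summed over the 3 libraries with both, budesonide, proline and control, and did not pass the filter.

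Aldh4a1, the enzyme that finishes proline breakdown by making glutamate, was lowest with both compounds. It stood at 40.4, 41.1 and 37.9 CPM with both, at 46.7, 54.7 and 47.9 CPM with budesonide, at 49.9, 66.5 and 68.1 CPM with proline, and at 61.4, 68.2 and 73.1 CPM in control. The libraries with both compounds lay below all 9 others. Budesonide and control did not overlap, and proline overlapped both control and budesonide. In ascending order the means were 39.8 ± 1.70, 49.8 ± 4.31, 61.5 ± 10.1 and 67.6 ± 5.90 CPM for both, budesonide, proline and control (SD, n = 3 each).

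Aldh4a1 fell with both against control by 0.76 ± 0.18 on the log2 scale, 1.70-fold lower (edgeR adjusted p = 0.00881), and stayed called in all 20 alternatives, among them that without control 3 and budesonide 3 (−0.71 ± 0.19, adjusted p = 0.0230). Against proline it fell by 0.62 ± 0.18 (adjusted p = 0.0246), a call that ended without proline 2 (0.1005), proline 3 (0.117), both 1 (0.0807), both 2 (0.0710) or both 3 (0.0831). With budesonide alone against control its change was −0.44 ± 0.18 (adjusted p = 0.150), and with both against budesonide −0.32 ± 0.18 (adjusted p = 0.473). The average budesonide effect, also added after the values were seen, was a fall of 0.53 ± 0.12 (95% interval −0.79 to −0.27, adjusted p = 0.00387), called in all 19 alternatives. In that comparison 1 of 8 enzymes fell, while 8.98% of all tested genes were called lower and 18.2% in either direction. The 6 libraries with budesonide overlapped the 6 without for Aldh4a1 and every other enzyme, and did not overlap for 6.12% of all genes. The ribosomal RNA Rn18s took 4.51% ± 1.39, 4.36% ± 2.22, 2.87% ± 0.519 and 2.55% ± 0.303 of the counts with both, budesonide, proline and in control (SD, n = 3 each). Over genes, the correlation of a library's deviation in log2 CPM with log2 transcript length was 0.0393 to 0.0573 with both, 0.0555 to 0.066 with budesonide, −0.0525 to −0.0218 with proline and −0.0819 to −0.0669 in control. The part of Rn18s in the result was not tested, and with offsets for transcript length and GC content Aldh4a1 was still called.

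The promoter of Aldh4a1 is shown as the member with the steadiest call in a single comparison. It lies at chr4:139622644-139622870 on the plus strand of GRCm38.p6 and ends before the outermost annotated start of the gene. Capitals mark the CCAAT box, read here on the opposite strand as ATTGG. The window holds 3 of these. Of all windows 3.37% hold 3 or more and 37.4% at least 1, and among the enzymes Pycr1 and Oat have it too.

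Aldh4a1: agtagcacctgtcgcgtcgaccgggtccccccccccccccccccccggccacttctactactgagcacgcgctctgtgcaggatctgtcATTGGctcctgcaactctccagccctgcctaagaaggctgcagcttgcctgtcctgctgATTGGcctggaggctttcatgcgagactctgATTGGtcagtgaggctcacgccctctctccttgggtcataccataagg

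Glud1, which joins glutamate to the tricarboxylic acid cycle, was the best measured member and was higher with proline. It had 409, 422 and 429 CPM with both compounds, 347, 405 and 348 CPM with budesonide, 468, 401 and 485 CPM with proline, and 346, 382 and 324 CPM in control. Libraries with proline, with or without budesonide, lay above every control library, and budesonide 2 lay above proline 2. Means were 419.7 ± 10.3, 366 ± 33.3, 451 ± 44.4 and 350.4 ± 29.2 CPM for both, budesonide, proline and control (SD, n = 3 each).

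Glud1 rose with proline against control by 0.37 ± 0.11 on the log2 scale (edgeR adjusted p = 0.0449), close to the threshold. The call ended in 13 of 20 alternatives, over a range of 0.00980 to 0.190. Among these were the fits without control 1 (0.123), control 3 (0.149), proline 1 (0.164), proline 3 (0.190), budesonide 1 (0.0503), both 1 (0.0651), both 2 (0.0693) or both 3 (0.0511), and without control 3 and budesonide 3 together (0.123). The average proline effect was 0.28 ± 0.08 (adjusted p = 0.0221), and that call ended without proline 1 (0.0614), proline 3 (0.0664), budesonide 1 (0.0568) or both 2 (0.0585) and without control 3 and budesonide 3 together (0.0849). Mitochondrially encoded transcripts took 7.95% ± 0.0708, 7.72% ± 0.280, 5.62% ± 0.156 and 7.58% ± 0.243 of the counts with both, budesonide, proline and in control (SD, n = 3 each), and their part in the result was not tested.

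Pepd, which recovers proline from peptides, had 47.5, 43.6 and 60.4 CPM with both compounds, 63.7, 60.3 and 53.9 CPM with budesonide, 43.3, 43.1 and 40.02 CPM with proline, and 50.6, 41.2 and 57.8 CPM in control. All 3 libraries with both lay above the 3 with proline, by a narrow margin. Pepd was not called in any comparison. The log2 change was 0.26 (95% interval −0.13 to 0.65) with both against proline and 0.25 (95% interval −0.14 to 0.64) with budesonide against control.

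**Figure D2:**
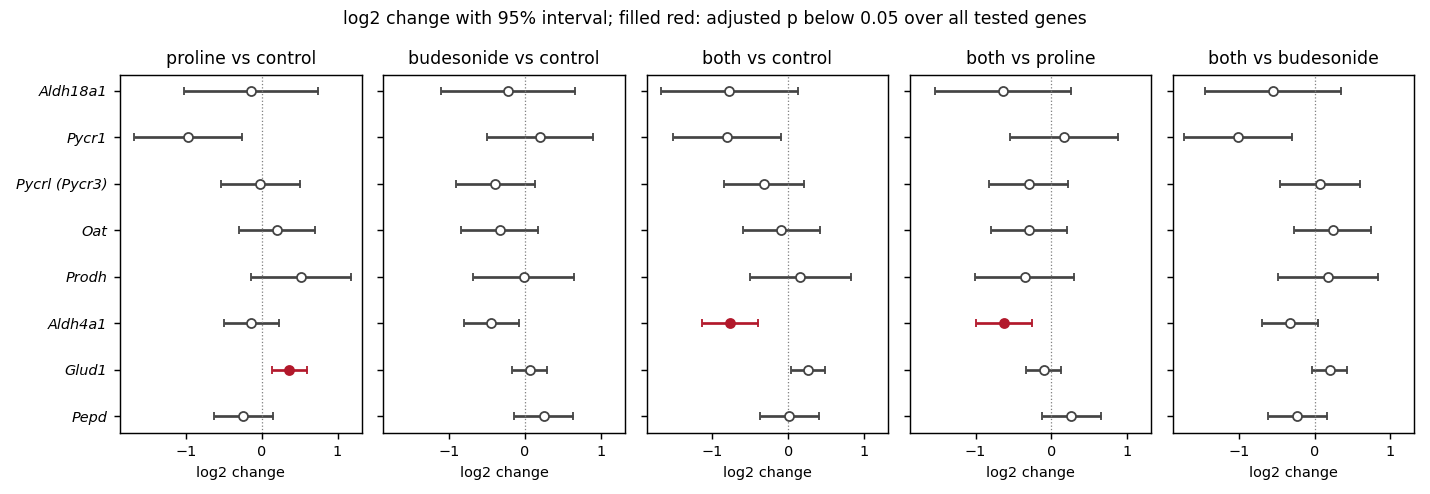
Log2 change of each enzyme gene in 5 comparisons, first-named group over second. Points are the estimates of the edgeR fit with their 95% intervals, and filled red points have an adjusted p below 0.05 over all genes tested. Glud1 with proline and Aldh4a1 with both compounds are the filled points among the 8, and the widest intervals belong to Aldh18a1.

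No member showed an interaction of proline and budesonide. The interaction values ran from −0.42 to 0.09 on the log2 scale, with the smallest standard error, 0.16, for Glud1 and the largest, 0.61, for Aldh18a1. The 12 libraries did not order the members alike: the correlation of log2 CPM between pairs ran from −0.76 for Prodh and Pepd to 0.62 for Pycrl and Aldh4a1. These points share libraries and depth and are given as a description.

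Genes outside the 8 with the most similar pattern over the 12 libraries, by Pearson correlation of log2 CPM, were Zfp874a (0.93), Inhbb (0.92) and Gemin7 (0.92) for Pycr1. For Aldh4a1 they were Mrpl19 (0.97), Pinx1 (0.94) and Ppp2r5a (0.93), and for Glud1 they were Kars (0.94), 1700017B05Rik (0.92) and Cnn1 (0.92). Foxn4 (0.96), Rac1 (0.91) and Dffb (0.90) were nearest to Prodh, and Ap3d1 (0.93), Gm47283 (0.93) and 4930478L05Rik (0.92) to Pepd. Pex2 (0.88), 1700008J07Rik (0.85) and Uimc1 (0.85) were nearest to Oat, and Egfl7 (0.84), Rras (0.83) and Lamtor2 (0.82) to Pycrl. Aldh18a1, at a mean of 9.26 CPM, was below the 10 CPM set for this search. The genes named are the 3 highest for each member among all tested genes outside the 8. Picking the highest of so many over 12 libraries raises the correlations, so they are a description and show no shared control.

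The neighbouring enzymes of glutamate, ornithine and proline were read from a list of 12, of which 8 were tested. With proline edgeR called 0, with 2 at an unadjusted p below 0.05, while DESeq2 called 0 and limma-voom 1. With budesonide 2 fell, with both against proline 2 fell, and with both against control 2 fell. The shares of all tested genes called in either direction were 6.51%, 10.1% and 7.17% in these comparisons, and 7.88% with proline. The list's median log2 change was 0.0044 with proline and −0.23 with both against control, beside −0.01 and 0.01 for all genes. Ornithine decarboxylase Odc1, which draws ornithine into polyamines, was lower in the libraries with budesonide. It stood at 48.6, 52.5 and 52.2 CPM with both compounds, at 47.0, 71.1 and 57.7 CPM with budesonide, at 87.9, 111 and 88.5 CPM with proline, and at 90.3, 111 and 121 CPM in control. Odc1 fell by 0.88 ± 0.17 with budesonide (edgeR adjusted p = 0.00278), by 0.90 ± 0.17 with both against proline (0.00122) and by 1.07 ± 0.17 with both against control (0.000399), in every alternative run. Glutamine synthetase Glul fell by 0.50 ± 0.11 with budesonide (0.00823). Its fall of 0.42 with both against control (0.0232) was lost without control 2, control 3 or any of the libraries with both, at adjusted p up to 0.0930. The mitochondrial aspartate aminotransferase Got2 fell by 0.50 with both against proline (0.0285), a call lost without proline 1, both 1 or both 2 (up to 0.194).

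Carriers of proline had 7 tested members of 12, with medians of 0.42 with proline and 0.94 with both against control. For all genes these medians were −0.01 and 0.01. The list's medians include the scarce carriers Slc36a4, Slc6a7 and Slc6a15, which held 11, 8 and 62 counts in total in control. With both against control their SE was 1.49, 1.33 and 0.74, and none of them was called. With proline 1 rose, with budesonide 2, with both against proline 2 and with both against control 1, and 0 fell in these. In the same order 7.88%, 6.51%, 10.1% and 7.17% of all tested genes were called in either direction. The carrier Slc38a2, which takes up proline and glutamine, had 1040, 1090 and 1088 CPM with both compounds, 825, 810 and 893 CPM with budesonide, 776, 841 and 809 CPM with proline, and 585, 603 and 625 CPM in control. It rose with proline by 0.42 ± 0.09 (0.00449), with budesonide by 0.48 ± 0.09 (edgeR adjusted p = 0.00218), with both against proline by 0.41 ± 0.09 (0.00468) and with both against control by 0.83 ± 0.09 (4.89e-06), in every alternative run. Slc38a4 rose by 0.68 with both against proline (0.00765), but not without proline 1 or both 1 (up to 0.0564). The proton-coupled carrier Slc36a1 rose by 1.27 with budesonide (0.0394), a call lost in 14 of 20 alternatives, among them those without any 1 control library, without proline 1 or 3, budesonide 1 or 2, or both 1 or 2 (up to 0.158).

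Genes that use proline in protein and collagen gave 8 tested of 10, with medians of −0.27 with proline and 0.34 with both against control. With proline 1 rose, with budesonide 3 fell, with both against proline 2 rose, with both against control 1 fell and with both against budesonide 1 rose. In the same order 7.88%, 6.51%, 10.1%, 7.17% and 1.47% of all tested genes were called in either direction. P4hb, the beta subunit of prolyl 4-hydroxylase, had 384, 424 and 507 CPM with both compounds, 292, 285 and 236 CPM with budesonide, 467, 479 and 436 CPM with proline, and 358, 359 and 347 CPM in control. Its rise of 0.70 ± 0.12 with both against budesonide (edgeR adjusted p = 0.00249) held in every alternative. Its rise of 0.38 with proline (0.0493) and its fall of 0.39 with budesonide (0.0481) were lost in 14 and 16 of 20 alternatives (up to 0.144 and 0.224). Among these were RLE scaling and the omission of any control or proline library, of budesonide 1 or 2 or of both 1 or 2, and for the fall also of budesonide 3. The prolyl-tRNA synthetase gene Eprs, which also charges glutamate, fell by 0.48 ± 0.10 with both against control (0.00375) in every alternative and by 0.43 with budesonide (0.0106), a call lost when budesonide 3 was left out (0.0575), also jointly with control 3 (0.0914). P3h4 fell by 0.90 with budesonide (0.0347), and the collagen hydroxylases P4ha1 and P3h1 rose by 1.04 (0.0346) and 0.63 (0.0454) with both against proline. These last 3 calls were lost in 8, 8 and 10 of 20 alternatives. They ended without control 1 or 2, budesonide 1 or 2, or both 1 or 2 for P3h4, and without any library of either group compared for the other two, and for P3h1 also without control 2 or budesonide 2 (up to 0.163, 0.139 and 0.155). Of 10 peptidases that cut at proline 8 were tested, with medians of −0.12 with proline and −0.09 with both against control, and 1 was called: Xpnpep1 fell by 0.52 with proline (0.0363), a call lost without control 1, control 3 or any proline library (up to 0.170).

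Pycr1 and Aldh18a1 are known Atf4 targets, so their values are set beside a list of Atf4 and 15 of its targets, all tested. With proline 7 of 16 fell and 0 rose, with a median of −0.42 beside −0.01 for all genes, led by Asns (−1.17 ± 0.13), Cth (−1.35 ± 0.20), Psat1 (−0.65 ± 0.13) and Atf4 (−0.53 ± 0.12), in every alternative. Called in either direction were 7.88% of all tested genes with proline, 6.51% with budesonide and 10.1% with both against proline. For both against control and both against budesonide the shares were 7.17% and 1.47%. Asns, which makes asparagine, had 156, 157 and 153 CPM with both compounds, 295, 279 and 246 CPM with budesonide, 137, 132 and 134 CPM with proline, and 271, 279 and 357 CPM in control. As for Pycr1, the 6 libraries with proline lay below the 6 without. For Aldh18a1 these libraries overlapped, and its log2 change with proline against control was −0.14 ± 0.43 (edgeR adjusted p = 0.922). The average proline effect on Aldh18a1 was −0.35 ± 0.30 (edgeR adjusted p = 0.569), so it was not called in either comparison. Asns fell with both against budesonide by 0.82 ± 0.12 (edgeR adjusted p = 0.00118), and Cth, which makes cysteine, by 1.24 ± 0.20 (0.00178), in every alternative. In that comparison 3 of 16 fell, and the third was the serine synthesis enzyme Psat1, by 0.67 ± 0.13 (0.00750; 0.0566 at most, without both 1 or both 2). With budesonide alone 1 fell, Psat1 by 0.54 (0.0111), a call lost when control 3 was left out (0.0613), also jointly with budesonide 3 (0.115). With both against control 7 fell, led by Psat1 (−1.21 ± 0.13), Asns (−0.96 ± 0.13), Cth (−1.38 ± 0.20) and Atf4 itself (−0.63 ± 0.12), in every alternative. With both against proline 4 fell and 1 rose: the glutathione-degrading enzyme Chac1 fell by 1.91 ± 0.39 (0.00234) in every alternative. Psat1 fell by 0.56 (0.00533; 0.0501 without both 2), Ddit4 fell by 0.60 (0.0127) and Ddit3 rose by 1.93 (0.0253). The Ddit4 call was lost without proline 1 or 3 or both 1 or 2 (up to 0.0666), and that of Ddit3 without proline 1 or 2 or any library with both (up to 0.111). Fewer Atf4 target transcripts with proline were known of these data when the list was chosen, so the list gives no independent support. In the promoter windows, 5 of 14 genes of the list that have a window hold TGATGNAA: Asns, Atf3, Chac1, Slc7a11 and Trib3. The motif is in 3.97% of all windows. With proline Asns and Trib3 were called lower, Trib3 close to the threshold (edgeR adjusted p = 0.0445), while Atf3, Chac1 and Slc7a11 were not called. Atf3 and Slc7a11 were scarce, with SE of 1.53 and 1.46 with proline, so the lack of a call says little for them. Cth, Psat1, Atf4, Shmt2 and Ddit3, also called lower with proline, are not among these 5. Not every gene of the list has a window, so a gene may be missing from the 5 because it was not searched. A link between the motif and the changes was not tested.

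**Figure D3:**
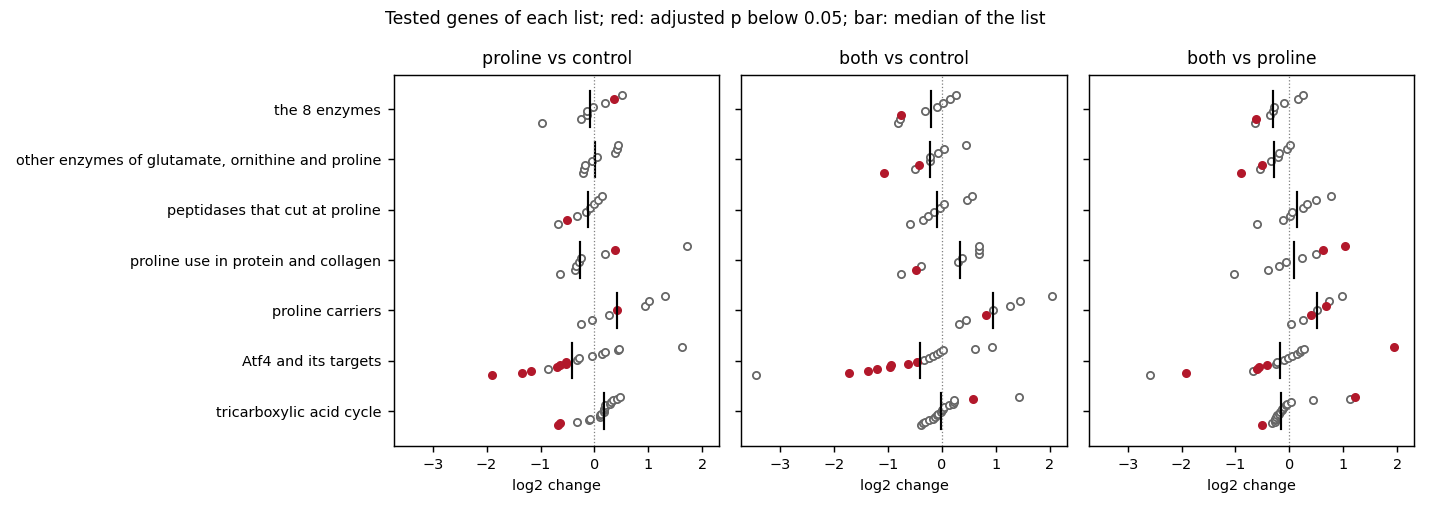
Log2 change of every tested gene of the enzyme group and of 6 related lists in 3 comparisons, first-named group over second. Each point is 1 gene, red points have an adjusted p below 0.05, and the black bar is the list's median. With proline 7 of the 16 genes of the Atf4 list fell, and of the 8 enzymes 1 rose and 7 were not called. In that comparison 7.88% of all tested genes were called in either direction.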

How the data were processed

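RNA of 12 libraries of E14 mouse embryonic stem cells was prepared with a column kit and a QuantSeq 3′ kit for polyadenylated RNA, per the labels' protocols. The authors deposited whole-number counts per gene symbol. Per the submitters' processing notes, which assign no roles, the tools were STAR 2.7.5c, cutadapt 2.5, featureCounts 2.0, bcl2fastq and DESeq2, on build GRCm39. Strand setting, gene annotation and the handling of multiply matching reads are not given in the sources used. Of the words of 50 bases in the last 500 bases of each member, at most 0.443% were found in other genes of GENCODE M21.

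Counts of all 12 libraries were fitted in R 4.3.3 with edgeR 4.0.16 (glmQLFit, glmQLFTest, two-sided) after filterByExpr (minimum count 10, minimum total 15) and TMM scaling, with 1 coefficient per group and 8 residual degrees of freedom. Log2 changes use a prior count of 0.125. Their SE is the absolute change over the square root of F. Correlations used log2 CPM with a prior count of 2. The procedure was tested on simulated data. The members, lists and tests were chosen with earlier results of these data known. The average effects of proline and of budesonide, and the length and GC offsets, were added after the values had been seen. All 8 members are described; of each other list the called genes are named, at most 4 per comparison by adjusted p; up to 3 genes of like pattern are given for each member with a mean of at least 10 CPM.

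Alternatives were RLE scaling, no low-count filter, DESeq2 1.42.0, limma-voom (limma 3.58.1), a replicate block, each library left out in turn, control 3 and budesonide 3 left out together, only the 6 libraries compared, and offsets for transcript length and GC. The last used GENCODE M21 (GRCm38) transcripts, matched by symbol for 99.03% of tested genes, with no coordinates carried to the files. No replicates were repeats of each other (chi-square per degree of freedom of 5.55 or more). The deposited normalized table was not used. A gene of the list of neighbouring enzymes stayed in the fit and is not reported here.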

Additional observations from a re-analysis of the deposited data

How the results depend on the processing

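Of 64 log2 values of members over the comparisons, 58 were not called. Of these 19 changed sign in at least 1 alternative, none of them called there, and 1 was called in an alternative (Pycr1 with proline). The calls of Aldh4a1 with both against control, of Pycr1 for the average proline effect and of Aldh4a1 for the average budesonide effect held in every alternative.

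The count of members called with proline was 1, and 0 with no low-count filter, with the replicate block, without control 3 and budesonide 3 together, with only the 6 libraries compared and with length and GC offsets. For the average proline effect it was 2, and 1 without control 3 and budesonide 3. Leaving out single libraries gave 0 to 1 members with proline, 0 to 1 with both against proline, and 1 to 2 for the average proline effect. Over all genes, both against budesonide gave 203 calls, and 354 with no low-count filter, 419 with DESeq2, 128 with the replicate block and 120 with only the 6 libraries. The interaction gave 65, and 134 with no filter and 146 with DESeq2. Budesonide against control gave 902, and 575 without control 3 and budesonide 3 and 493 with only the 6 libraries. Single libraries left out gave 674 to 1245 calls with proline, 836 to 1647 with both against proline, 535 to 1187 with both against control and 80 to 307 with both against budesonide. The cause of these shifts was not tested.

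Same-numbered libraries of different groups did not deviate together (correlations of −0.0767 to 0.0529 over 18 pairs), so the numbers were not taken as pairs. Among the calls given above for the enzymes, the replicate block ended that of Glud1 with proline (adjusted p = 0.0724). Aldh18a1 had the fewest counts, 36 to 111 per library. Its coefficient of variation from counting alone was 12.1%, and that estimated between libraries beyond counting was 35.8%.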

Other observations

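Of the 18 genes of the tricarboxylic acid cycle, all tested, 2 fell with proline, 1 rose and 1 fell with budesonide, 1 rose and 1 fell with both against proline, and 1 rose with both against control. Of all tested genes 7.88%, 6.51%, 10.1% and 7.17% were called in these comparisons, so the list's counts are near the background. Idh2, the mitochondrial NADP-dependent isocitrate dehydrogenase, was called each time. It stood at 111, 112 and 98.3 CPM with both compounds, at 104, 107 and 115 CPM with budesonide, at 45.7, 42.2 and 51.3 CPM with proline, and at 70.5, 76.3 and 68.8 CPM in control, so that the proline libraries lay below all others. Idh2 fell with proline by 0.63 ± 0.15 on the log2 scale (edgeR adjusted p = 0.00764) and rose with both against proline by 1.21 ± 0.15 (7.09e-06), both in every alternative. Its rises of 0.60 with budesonide (0.0133) and 0.58 with both against control (0.0150) were lost in some alternatives. With budesonide these were the fits without control 1 (0.0528), budesonide 3 (0.0518) or control 3 and budesonide 3 together (0.0920), and with both those without control 1 (0.0595), control 3 (0.0543), both 1 (0.0789) or both 2 (0.0851). The interaction of 0.61 ± 0.21 was not called (adjusted p = 0.307). The other calls were falls of Sucla2 with proline by 0.67 (0.0219), of Idh3b with budesonide by 0.61 (0.0367) and of Suclg1 with both against proline by 0.51 (0.00746), each lost in at least 1 alternative (up to 0.127, 0.153 and 0.0621). Single libraries that ended them were control 1, control 2, proline 1 and proline 2 for Sucla2, control 1, control 2, budesonide 2, budesonide 3 and both 1 for Idh3b, and both 2 for Suclg1.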
